A study of Mus musculus with 2 samples.

Results

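The potassium channel genes of the mouse are described here in 2 single-cell RNA-seq libraries of the cerebral cortex, 1 from control mice and 1 from mice with white matter injury (WMI). A gene was taken as a member when its symbol began with Kcn, followed by the letter of a channel subfamily and a number. Symbols of antisense or overlapping transcripts and of pseudogenes were left out. This rule used no measured value and gave 86 genes out of 55450 listed, and 99 symbols in all began with Kcn. Per the labels, both libraries came from C57BL/6 mice of 2 weeks. In the WMI group the right common carotid artery was ligated on postnatal day 7 with 1 h of hypoxia, and the cortex of the ligated side was taken on postnatal day 14. The control group gave the cortex of the same side, and the same day of surgery, day of sampling and 1 h of hypoxia are recorded for it. The labels describe nuclei, whereas the methods of the study describe cells from digested tissue, with other days of surgery and sampling, a longer hypoxia and several replicates per group, whereas 1 library per group is analysed here. These differences could not be resolved, and how many mice were pooled in a library is not stated in the labels.

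Potassium channels let potassium ions leave the cell and thereby set the resting potential, end action potentials and limit repetitive firing. Voltage-gated (Kv) channels open on depolarization, calcium-activated channels (BK, SK) and sodium-activated channels (Slack, Slick) respond to ions that enter during firing, and inward rectifiers (Kir) and tandem pore domain (K2P) channels carry the resting conductance. Astrocytes take up potassium released by active neurons largely through the inward rectifier Kir4.1, which cells of the oligodendrocyte (OL) lineage also use, and microglia hold their resting potential with the K2P channel THIK-1.

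Each RNA molecule was counted once by its unique molecular identifier (UMI). The control library held 66470806 UMIs in 10288 barcodes and the WMI library 60568639 UMIs in 8354 barcodes, of which 8812 and 7586 were kept. The libraries shared 36 barcodes, 29 of them among those kept. Cells fell into 31 clusters, of which 27 were named from cell type markers and formed 18 classes, and 4 stayed unnamed with 41.3% of control and 9.58% of WMI cells. All markers of each class with a list of its own had at least 1 UMI in that class in every library that held its cells. As the clusters were named from these markers, this was largely fixed in advance and does not test the names. There were 92 cells with markers of striatal projection neurons, which are not cortical, all from the WMI library. Whether all other cells came from the cortex was not tested. The libraries also differed in sex composition, as Xist was seen in 0.0454% of control and 63.3% of WMI cells, and in mitochondrial RNA, with a median share of 0.0616% and 0.456%. With 1 library per group no test between groups was possible. The levels below are the UMIs of a gene in the cells of a class, per 1000000 UMIs of those cells (CPM). The 95% intervals beside them were computed exactly from the counts and hold the error of counting alone, not variation between mice.

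RNA of neurons was also found outside neurons. The summed level of 7 markers of excitatory neurons (among them Slc17a7, Neurod2, Neurod6, Tbr1 and Camk2a) was 1419 in control and 1273 in WMI excitatory neuron-like cells. In microglia-like cells it was still 776 and 687, in astrocyte-like cells 523 and 380, in OL precursor cell (OPC)-like cells 510 and 423, and in premyelinating OL (pre-OL)-like cells 441 and 377. None of these 7 markers was at 0 in these classes. A member whose glial level was below its excitatory level could therefore not be told apart from neuronal RNA, and the glial values are given beside the neuronal ones.

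All 86 members had at least 1 UMI. They made up 874237 UMIs (1.52%) of the control and 716877 UMIs (1.34%) of the WMI library. In named classes, 61 members reached 50 UMIs in both libraries, and 25 did not. The low ones included all 5 MinK-related subunits (Kcne1 to Kcne4 and Kcne1l), which modify Kv7 channels, and 10 members had fewer than 10 UMIs in named classes over both libraries. The levels of all members together were highest in the few Cajal-Retzius-like cells, at 23764 and 22787 CPM in control and WMI, and lowest in mature OL-like cells. They summed to 17627 and 17434 CPM in Lhx6 interneuron-like cells, 16777 and 16339 in upper-layer neuron-like cells, 13131 and 12039 in OPC-like cells, 10093 and 9181 in neuroblast-like cells, 8561 and 6636 in astrocyte-like cells and 4997 and 3734 in mature OL-like cells, for control and WMI respectively. Members with longer gene bodies had more UMIs, with a Spearman correlation of 0.695 over the 86 genes, so that levels are compared between classes and not between genes. Of the members, 36 overlap another gene and 33 of these an antisense gene, and reads of overlapping genes may not be fully separable.

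By subfamily, the summed levels told neurons and glia apart in part. The 4 Kv3 members, channels of fast spiking, summed to 2756 CPM in control and 2572 in WMI inhibitory neuron-like cells, and to 307 and 317 in excitatory neuron-like cells. The summed level of the 4 BK beta subunits showed the same contrast, with 1079 and 1032 against 117 and 142. This sum rested on Kcnmb2. Kcnmb4 went the other way, as its inhibitory level was below its excitatory level in both libraries. The 5 Kv7 members, which carry the M-current that damps firing, were highest in excitatory neuron-like cells, at 4132 and 3920. The 3 Kv4 members, A-type channels, were at 4926 and 5276 in OPC-like cells and at 2453 and 2607 in excitatory neuron-like cells. The 8 Kv1 members were highest in mature OL-like cells, at 322 and 255, against 110 and 115 in excitatory neuron-like cells. With the excitatory and the inhibitory classes each pooled, the 4 SK and IK members were highest in control astrocyte-like cells, at 669. They lay at 400 there in the WMI library, where neuroblast-like cells held 473.

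Most members were highest in a neuronal class. Of the 62 members counted in the control library and the 61 counted in the WMI library, 44 and 44 were highest in a neuronal class, 7 and 7 in the OL lineage, 4 and 2 in astrocyte-like cells, 5 and 7 in microglia-like cells and 2 and 1 in vascular or meningeal cells. More of the named classes were neuronal than of any other group, and the same count over all genes was not made. Whether the members differ in this from other genes was therefore not tested. The group was the same in both libraries for 52 of the 61 members counted in both, and the single class was the same for 36. Across 17 classes present in both libraries, the Pearson correlation of the control and WMI profile of a member had a median of 0.758, and it was above 0.9 for 14 members. The points of these profiles share libraries and depth, so they are given as a description.

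**Figure D1:**
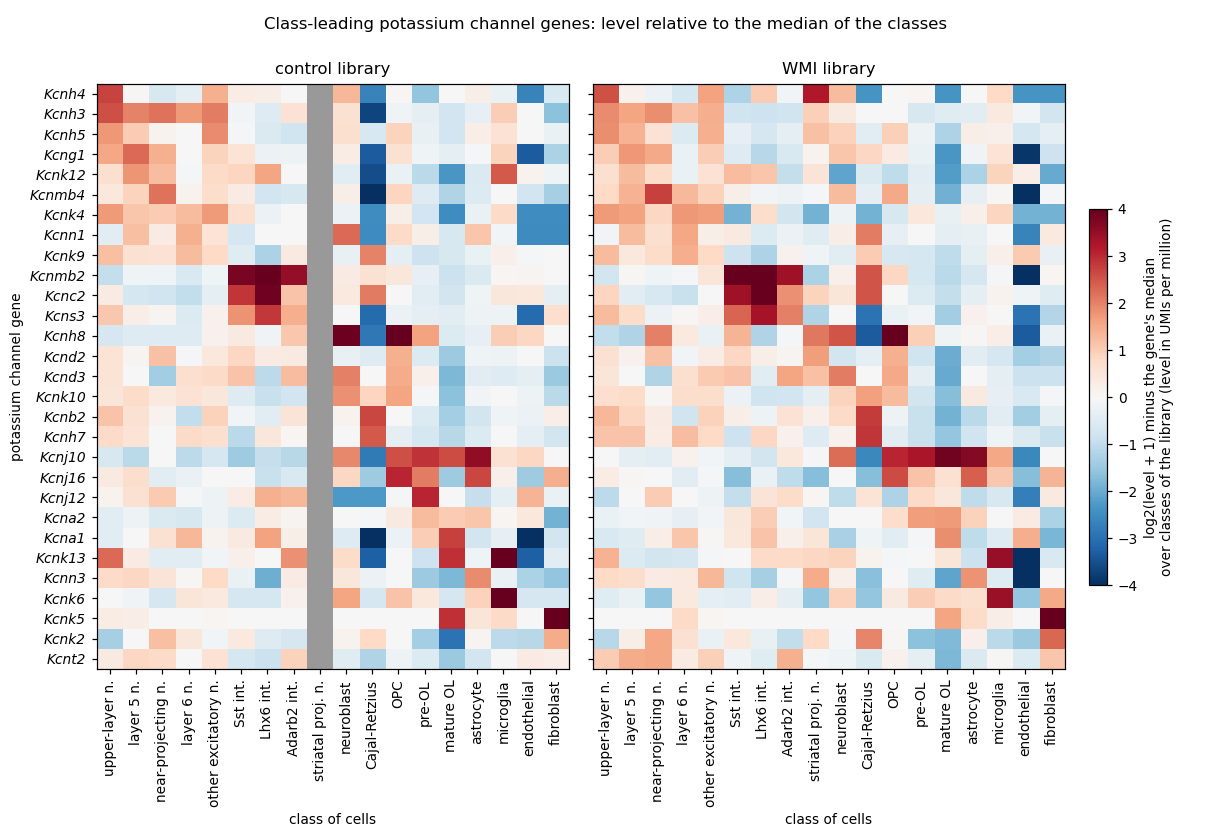
Level of the class-leading potassium channel genes (rows) in each class of cells (columns) in the control and the WMI library. Colour gives log2(level + 1), with the level in CPM, minus the median of that gene over the classes of the same library; grey marks the striatal class, which had no control cells. Kcnmb2, Kcnc2 and Kcns3 stand out in the interneuron classes, Kcnh8 in OPC-like cells, Kcnj10 over the glial classes and Kcnk13 and Kcnk6 in microglia-like cells.

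The leading members of Lhx6 and Sst interneuron-like cells were Kcnmb2, Kcnc2 and Kcns3. Kcnc2, which encodes the fast Kv3.2 channel of fast-spiking cells, had 4154 CPM in control and 4760 in WMI Lhx6 interneuron-like cells. It was at 1997 and 2300 in Sst interneuron-like cells, 615 and 779 in Adarb2 interneuron-like cells, and 231 and 236 in excitatory neuron-like cells. Cajal-Retzius-like cells, which were few, held 1182 and 1259. In both libraries the order of these 4 groups was thus the same, and the intervals of neighbouring groups did not overlap. Kcnmb2, a beta subunit that inactivates BK channels, followed the same order, with 1284 and 1379 in Lhx6, 929 and 1147 in Sst and 769 and 643 in Adarb2 interneuron-like cells. Kcns3 encodes Kv9.3, which is silent alone and modifies Kv2 channels. Its level was 59.8 in control and 77.4 in WMI Lhx6 interneuron-like cells, against a median of 6.96 and 6.79 over the other classes.

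Excitatory neurons differed by layer in some EAG and Elk channels. Kcnh3 and Kcnh4 (Elk channels) were highest in control upper-layer neuron-like cells, at 75.0 and 40.1 CPM respectively, and reached 66.1 and 28.9 in the same WMI class. The lead of Kcnh3 was within counting error. Near-projecting neuron-like cells held 57.5 (43.4 to 74.6) in control and 65.5 (49.7 to 84.6) in WMI. An excitatory cluster with Chrm2 among its leading genes held 70.3 in control and 47.6 in WMI. In the WMI library Kcnh4 was at 46.4 in striatal projection neuron-like cells, from 39 UMIs, and no control cells of that class existed. Kcnh5, an EAG channel, had 799 CPM in control and 902 in WMI cells of an excitatory cluster led by Rorb, a gene of layer 4. In the remaining excitatory clusters it lay between 53.6 and 598 in the control library and between 49.2 and 596 in the WMI library. Kcnh1, the other EAG channel, was highest in the same cluster, at 502 and 441. Potassium channel genes were not used to form the clusters, and both genes were among the 10 leading genes of this one. The modifier Kcng1 led in layer 5 neuron-like cells with 46.8 and 49.2, and the BK beta subunit Kcnmb4 in near-projecting neuron-like cells with 189 and 225. For Kcng1 an excitatory cluster with Ntng1 and Cpne7 among its leading genes held 40.4 and 43.8, within counting error of layer 5 neuron-like cells. Within layer 5, the cluster led by Gm2164 held 64.9 and 66.6 of Kcng1, and that led by Il1rapl2 held 33.8 and 37.9. Layer 6 neuron-like cells led in Kcnk9, the acid-sensitive K2P channel TASK-3, with 123 (113 to 134) and 128 (110 to 148), apart from 8 UMIs in control Cajal-Retzius-like cells (201). This lead was within counting error, as upper-layer neuron-like cells held 117 and 110. An excitatory cluster led by Ntng2 held 109 and 143.

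Some neuronal peaks rested on few cells. Kcnh7, an Erg channel, had 9103 (interval 8190 to 10091) CPM in 6 control and 8232 (7720 to 8770) in 24 WMI Cajal-Retzius-like cells, the early neurons of the cortical surface. Kcnb2, the delayed rectifier Kv2.2, had 5155 and 5286 in the same cells. For both genes the other named classes lay at or below 2844 CPM, the level of Kcnh7 in control layer 6 neuron-like cells. In neuroblast-like cells (52 control and 118 WMI cells), the A-type channel gene Kcnd3 had its highest level of any class, at 616 and 608.

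The glial leaders were few and separate. Kcnh8, an Elk channel, led in OPC-like cells, Kcnj10 (Kir4.1) in astrocyte-like cells and the OL lineage, and Kcnk13 (THIK-1) in microglia-like cells. Kcnk12 (THIK-2) led there in the control library, at 62.6, and in layer 5 neuron-like cells in the WMI library, at 33.0. The 250 bases before the annotated start of each of these 4 genes are shown because they are the members on which the glial results rest. Of the 86 members, 62 matched the RefSeq promoter table (GRCm38.p6). Capitals mark GGGCGGG (the GC box) or GAGGAAG (a core of ETS factor sites) on either strand, which occurred in 23.4% and 10.6% of all 32851 windows of 250 bases and in 21 and 8 of the 78 windows of members. The windows are chr17:52602459-52602708 (+) for Kcnh8, chr1:172340960-172341209 (+) for Kcnj10, chr12:99964249-99964498 (+) for Kcnk13 and chr17:87797995-87798244 (-) for Kcnk12.
Kcnh8: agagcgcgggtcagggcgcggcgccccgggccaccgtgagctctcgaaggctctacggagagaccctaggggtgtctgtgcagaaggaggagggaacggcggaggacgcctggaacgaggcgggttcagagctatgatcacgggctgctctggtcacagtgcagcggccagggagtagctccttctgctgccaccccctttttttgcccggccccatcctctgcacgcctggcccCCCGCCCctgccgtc
Kcnj10: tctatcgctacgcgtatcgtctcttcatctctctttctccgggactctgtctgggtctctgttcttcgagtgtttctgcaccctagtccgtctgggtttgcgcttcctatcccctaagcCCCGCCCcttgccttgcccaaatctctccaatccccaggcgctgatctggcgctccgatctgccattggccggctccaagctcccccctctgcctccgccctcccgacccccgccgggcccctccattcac
Kcnk13: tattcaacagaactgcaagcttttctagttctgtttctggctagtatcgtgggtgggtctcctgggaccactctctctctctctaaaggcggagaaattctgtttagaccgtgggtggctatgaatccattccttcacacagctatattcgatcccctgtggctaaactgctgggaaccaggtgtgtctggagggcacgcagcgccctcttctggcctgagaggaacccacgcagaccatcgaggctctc
Kcnk12: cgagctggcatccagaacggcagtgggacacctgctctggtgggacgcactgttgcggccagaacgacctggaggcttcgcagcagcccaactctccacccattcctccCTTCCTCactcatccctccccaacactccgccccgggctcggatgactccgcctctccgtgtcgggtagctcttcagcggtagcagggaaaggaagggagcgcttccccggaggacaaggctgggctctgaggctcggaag
Kcnh8 and Kcnj10 each held 1 GC box, on the reverse strand, Kcnk12 held 1 ETS core, also reversed, and Kcnk13 held neither. The windows held 20, 17, 8 and 16 CpG sites for Kcnh8, Kcnj10, Kcnk13 and Kcnk12, against a median of 6 over all windows. These matches are descriptions of the letters and not of binding.

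Kcnh8 had 172 CPM (152 to 193; 276 UMIs) in control and 204 (185 to 224; 446 UMIs) in WMI OPC-like cells. It was at 21.5 and 18.6 in pre-OL-like cells, at 3.96 and 8.04 in mature OL-like cells and at 5.5 and 7.31 in excitatory neuron-like cells. Its level was thus high in precursors, low in the later stages of the lineage and near the neuronal level in mature cells. Neuroblast-like cells came next, with 109 (72.9 to 156) in control and 56.5 (36.6 to 83.5) in WMI, from 29 and 25 UMIs. The control interval overlapped with that of control OPC-like cells. In the WMI library striatal projection neuron-like cells at 42.9 (30.03 to 59.4) and near-projecting neuron-like cells at 39.5 (27.5 to 55.0) overlapped with neuroblast-like cells. Kcnd2, which encodes the A-type channel Kv4.2, had 4495 and 4842 CPM in OPC-like cells and 2223 and 2344 in excitatory neuron-like cells. This was its highest class in the control library, and only the striatal class was higher in the WMI library, at 5837.

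Kcnj10 had 82.0 CPM (71.2 to 94.1) in control and 75.1 (65.8 to 85.5) in WMI astrocyte-like cells. In the OL lineage it was at 41.7 and 47.6 in OPC-like, 52.0 and 55.9 in pre-OL-like and 42.2 and 84.5 in mature OL-like cells, for control and WMI. The mature OL-like intervals ran from 28.9 to 59.6 in control and from 60.9 to 114 in WMI and did not overlap, from 32 and 42 UMIs in 89 and 52 cells. Excitatory neuron-like cells held 3.3 and 4.51. Kcnj16 encodes Kir5.1, which joins Kir4.1 in mixed channels. It was at 16.01 and 16.2 in astrocyte-like cells and at 21.2 and 18.8 in OPC-like cells, against a median of 1.69 and 2.26 over the classes other than astrocyte-like cells. The SK channel gene Kcnn3 was also highest in astrocyte-like cells, at 113 and 104, with 49.7 and 64.6 in excitatory neuron-like cells. The excitatory cluster with Ntng1 and Cpne7 among its leading genes, however, held 122 and 103 of Kcnn3.

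Mature OL-like cells were highest for the Kv1 channel gene Kcna1, which encodes Kv1.1, at 186 CPM (157 to 220; 141 UMIs) in control and 109 (81.6 to 142; 54 UMIs) in WMI. Its neighbour in the Kv1 subfamily, Kcna2, was at 64.4 and 81.6 in pre-OL-like and 54.1 and 84.5 in mature OL-like cells, whose intervals overlapped. Kcnj12 (Kir2.2) was at 39.6 (27.6 to 55.0; 35 UMIs) in control pre-OL-like cells. In WMI pre-OL-like cells it was at 10.2 (6.47 to 15.3; 23 UMIs), within the range of the neuronal classes.

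Some K2P channel genes, Kcnk13 and Kcnk6, were highest in microglia-like cells in both libraries. Other K2P members, Kcnk2, Kcnk9 and Kcnk10, lay below their excitatory levels there in both libraries. Kcnd1 and Kcnf1, of other subfamilies, were also highest in microglia-like cells in both libraries. Kcnk13 had 209 CPM (186 to 234) in control and 183 (172 to 195) in WMI microglia-like cells, against 17.6 and 19.2 in excitatory neuron-like cells. Kcnk6 (TWIK-2) had 47.6 and 30.98, against 0.86 and 1.32. Both genes were thus above the excitatory level in both libraries, whereas the summed excitatory markers were below theirs. The highest single marker stood at 1.14 times its excitatory level in control and 0.947 times in WMI microglia-like cells. Outside microglia-like cells, Kcnk13 was next highest in control mature OL-like cells, at 72.6 (54.7 to 94.5; 55 UMIs), and in the WMI cells of that class it was at 22.1 (11.04 to 39.6; 11 UMIs). In fibroblast-like cells of the meninges (52 control and 76 WMI cells) Kcnk2, the mechanosensitive channel TREK-1, was at 363 and 452. Kcnk5 (TASK-2) was there at 82.0 (26 UMIs) and 17.4 (7 UMIs) and at or below 6.6 in every other class. Kcnq1 was highest in 22 control endothelial-like cells, at 166 from 14 UMIs.

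**Figure D2:**
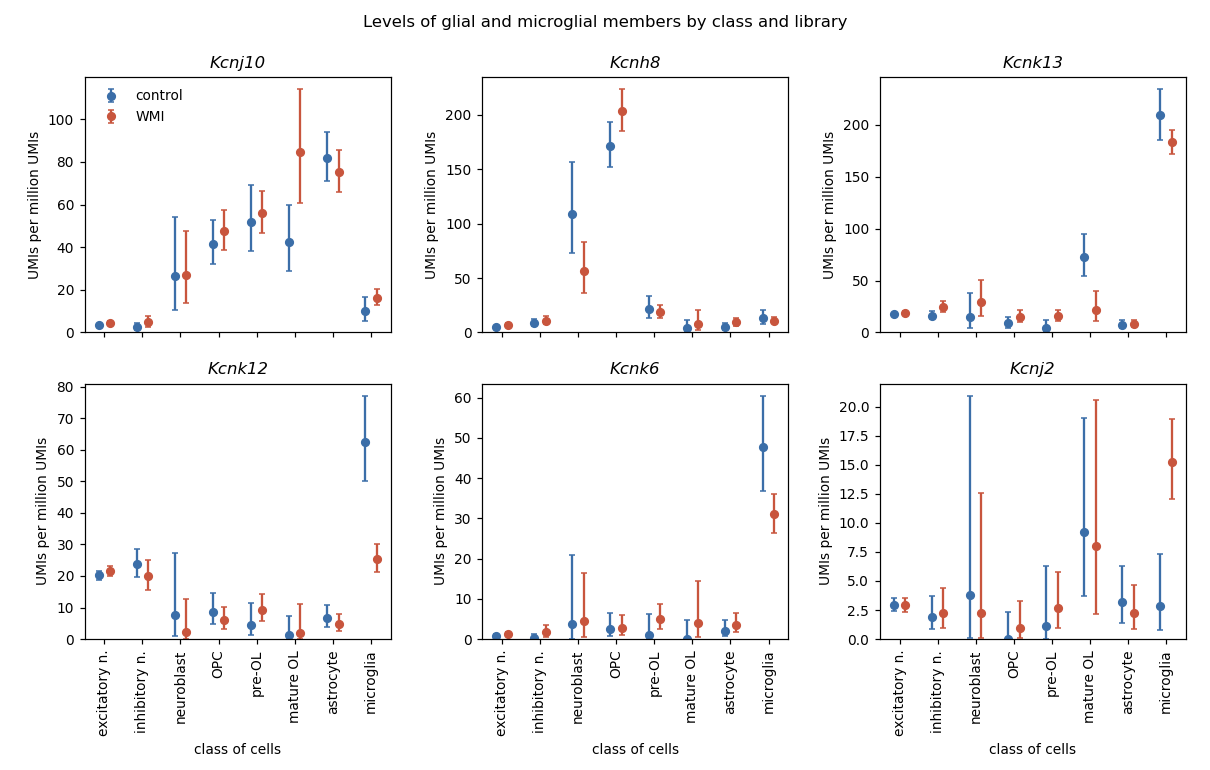
Levels of 6 members, in CPM, in 8 classes of cells in the control (blue) and WMI (red) library, with exact 95% counting intervals as bars; each panel has its own scale from 0. Kcnk12 in microglia-like cells lay at 62.6 in control and 25.5 in WMI, and Kcnj2 in the same cells at 2.84 and 15.2.

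The members with the most similar profiles over 35 class and library points were neuronal. Among the 61 members counted in both libraries, the 5 highest Pearson correlations of log2(level + 1) lay between 0.808 and 0.857 and included those of Kcng1 with Kcnmb4 at 0.829 and of Kcnh1 with Kcnj6 (GIRK2) at 0.811. These points share libraries and neuronal RNA in glial classes, and the values are descriptive.

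WMI and control levels were then compared within 6 classes, for members with at least 100 UMIs over both libraries, and a ratio past 1.5-fold was counted. In excitatory neuron-like cells, 3 of 59 members were higher and 1 was lower in WMI, which is 6.78% of the members against 11.8% of all 15051 genes (6.82% higher and 4.96% lower). The median log2 ratio of the members was 0.03, and that of all genes 0.01. In inhibitory neuron-like cells, 1 of 37 members was higher and 2 were lower (8.11%, against 8.31% of all 8228 genes, 5.14% higher and 3.17% lower), with medians of -0.07 and -0.01. Neither share exceeded that of all genes.

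In glial classes the median log2 ratio of the members was below 0 and below that of all genes. In astrocyte-like cells, 1 of 32 members was higher and 5 were lower (18.8%, against 17.3% of all 7440 genes). The median log2 ratio of the members was -0.35, against 0.10 for all genes. In OPC-like cells 0 were higher and 2 of 28 lower (7.14%, against 7.26% of 5522 genes), with medians of -0.23 and 0.04. In pre-OL-like cells 0 were higher and 6 of 22 lower (27.3%, against 11.3% of 4837 genes), with medians of -0.40 and 0.04. In microglia-like cells 1 was higher and 8 of 41 lower (22.0%, against 20.5% of 8875 genes), with medians of -0.27 and 0.11. Of all genes, 11.8% were higher and 5.48% lower in astrocyte-like cells, 4.82% and 2.44% in OPC-like cells, 6.7% and 4.61% in pre-OL-like cells, and 16% and 4.5% in microglia-like cells.

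The excitatory markers were also lower in WMI, in neurons as well as in glia. Their summed level had a log2 ratio of -0.46 (-0.58 to -0.35) in astrocyte-like, -0.27 (-0.41 to -0.13) in OPC-like, -0.22 (-0.40 to -0.05) in pre-OL-like and -0.18 (-0.27 to -0.08) in microglia-like cells. It was -0.22 (-0.31 to -0.12) in inhibitory and -0.16 (-0.17 to -0.14) in excitatory neuron-like cells, where the medians of the members lay near 0. Between 4 and 6 of the 7 markers were lower in WMI. Counted members below their excitatory level in both libraries had median log2 ratios of -0.40 in astrocyte-like (21 members) and -0.29 in OPC-like cells (16). In pre-OL-like cells (18) it was -0.40 and in microglia-like cells (27) -0.25. For members above that level in both libraries, the medians were -0.27 (7 members), 0.11 (11), 0.22 (2) and -0.19 (7), in the same order of classes. The rest were above it in 1 library only. The part of neuronal RNA in the glial ratios was not tested.

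**Figure D3:**
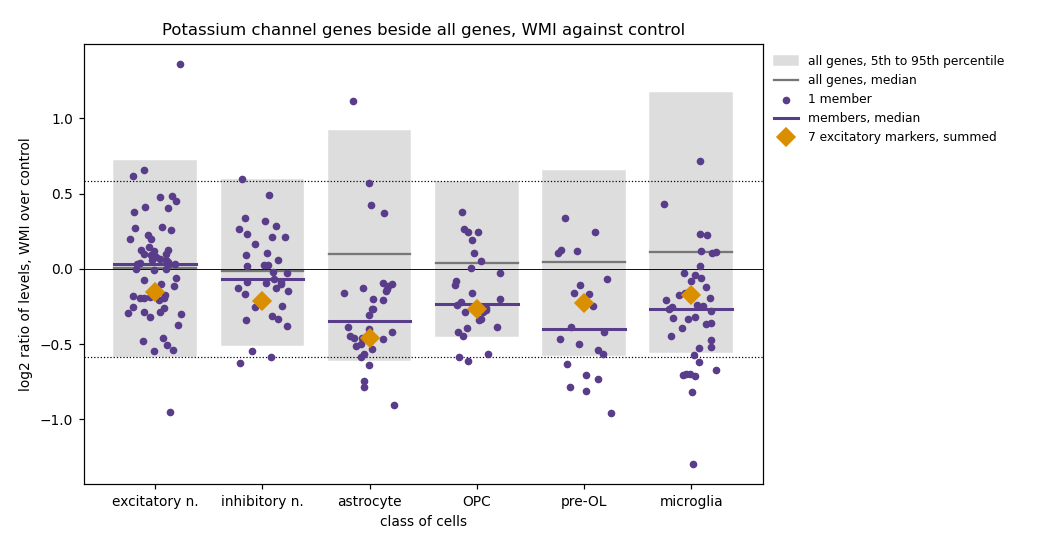
Log2 ratio of levels, WMI over control (y axis), of each counted member (points) in 6 classes of cells (x axis), with the median of the members and of all genes as lines, the 5th to 95th percentile of all genes as a grey box and the summed excitatory markers as a diamond; dotted lines mark 1.5-fold. The members' median lies at 0.03 in excitatory neuron-like cells and between -0.40 and -0.23 in the 4 glial classes.

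In excitatory neuron-like cells the highest ratio was that of Kcng2, a modifier of Kv2 channels, which was at 1.81 CPM (63 UMIs) in control and 4.64 (151 UMIs) in WMI, a 2.57-fold higher level. This rested on 1 cluster, with Ntng1 and Cpne7 among its 10 leading genes, that held 162 control and 657 WMI cells. In it Kcng2 had 3 UMIs in control and 98 in WMI, a log2 ratio of 2.87 (1.28 to 5.17), whereas in the other excitatory cells the log2 ratio was 0.26 (-0.30 to 0.82). Another Kv2 modifier, Kcng3, was at 8.42 and 13.3, 1.57-fold higher in WMI, and Kcnj4 (Kir2.3) at 17.02 and 26.1, 1.53-fold higher. With each cluster given the same weight in both libraries, the log2 ratio of Kcng3 fell from 0.65 to 0.35, and that of Kcnj4 was 0.67. Kcnj13 (Kir7.1) was at 2.44 (85 UMIs) and 1.26 (41 UMIs), a log2 ratio of -0.95 (-1.53 to -0.40). When cells with an Xist UMI were left out, it was -0.15.

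In inhibitory neuron-like cells, Kcnj9 (GIRK3) was at 33.0 in control and 21.4 in WMI (log2 ratio -0.63; -1.04 to -0.22) and Kcnt1 (Slack) at 90.9 and 60.5 (-0.59; -0.83 to -0.35). Kcnk13 was at 16.2 and 24.4 (0.59; 0.13 to 1.06). Without Xist-positive cells none of these 3 was past 1.5-fold and Kcnk2 was instead, and with equal cluster weights Kcnj9 alone was past it. Pooled over the interneuron classes, the log2 ratio was -0.10 for Kcnc2 and -0.07 for Kcnmb2. Within each of these classes, however, Kcnc2 was higher in WMI, as in Lhx6 interneuron-like cells (4154 and 4760). Kcnmb2 was higher in Lhx6 and Sst and lower in Adarb2 interneuron-like cells. The libraries held 203 control and 119 WMI Lhx6 interneuron-like cells, so that the pooled ratios also reflect the mix of classes. Kcnd3 was at 219 and 308 (0.49; 0.37 to 0.62), short of 1.5-fold.

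In astrocyte-like cells Kcna6, the Kv1.6 channel, went from 33.2 CPM (83 UMIs) in control to 71.9 (222 UMIs) in WMI, a 2.16-fold higher level with a log2 ratio of 1.11 (0.74 to 1.5). Its level in the pooled excitatory neuron-like cells was 35.9 and 37.5, so that only the WMI astrocyte-like level stood above it. Some neurons held more Kcna6, as layer 6 neuron-like cells were at 55.9 in control and 87.3 in WMI. Its highest class was Lhx6 interneuron-like in control and Sst interneuron-like in WMI. The log2 ratio of Kcna6 in astrocyte-like cells lay between 1.02 and 1.25 under all alternatives run. Kcnn2, an SK channel, was at 545 and 292 (log2 ratio -0.90; -1.02 to -0.78), above its level of 265 and 254 in excitatory neuron-like cells. Some neurons held more of Kcnn2 than astrocyte-like cells. Its highest class was Adarb2 interneuron-like in both libraries, and a layer 5 neuron-like cluster held 560 and 689. Kcnh7 was at 1143 and 662 (-0.79; -0.87 to -0.71) and Kcnj6 at 84.0 and 50.2 (-0.74; -1.05 to -0.44). Both lay below their excitatory levels. Kcnj10 (-0.13; -0.40 to 0.15), Kcnj16 (0.02; -0.61 to 0.65) and Kcnn3 (-0.11; -0.35 to 0.12), the leaders of this class, had intervals that included 0.

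Kcnh7 was lower in WMI in all 6 classes. Its level was 2635 in control and 2159 in WMI excitatory neuron-like cells (log2 ratio -0.29) and 1736 and 1378 in inhibitory neuron-like cells (-0.33). In OPC-like cells it was 1284 and 856 (-0.58), in pre-OL-like cells 1011 and 620 (-0.70) and in microglia-like cells 1662 and 1012 (-0.71). In the glial classes the levels were below those of excitatory neuron-like cells. Within the 12 excitatory clusters the log2 ratio of Kcnh7 lay between -0.22 and 0.10, nearer to 0 in each than the pooled -0.29, and in 3 clusters its interval was above 0. The cluster with 162 control and 657 WMI cells had lower Kcnh7 levels, 1529 and 1338, so that the pooled ratio also reflects the mix of clusters.

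In OPC-like cells Kcnh8 had a log2 ratio of 0.25 (0.03 to 0.47) and Kcnd2 of 0.11 (0.06 to 0.15), neither past 1.5-fold. The largest decreases were those of Kcnj6, from 120 to 78.2 (-0.61; -0.92 to -0.31), and Kcnh7. In pre-OL-like cells Kcna1 was at 54.3 (48 UMIs) in control and 27.9 (63 UMIs) in WMI, a log2 ratio of -0.96 (-1.52 to -0.38). Kcnk2 was at 49.7 and 28.8 (-0.79; -1.36 to -0.20). Other members past 1.5-fold were Kcnd3 (-0.63), Kcnh1 (-0.73) and Kcnh7. Of the 6 members past it, Kcna1 was above its excitatory level of 31.9 in control and level with that of 28.2 in WMI, and the other 5 were below theirs in both libraries. Without Xist-positive cells 14 members could be counted and 3 were past 1.5-fold, Kcnd3 and Kcnh7 as before and Kcnc2 in addition, and the log2 ratio of Kcnk2 was -0.29. Kcnj12, with 58 UMIs in this class too low to be counted, had a log2 ratio of -1.96 (-2.78 to -1.16), and it is named after its values were seen.

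In microglia-like cells Kcnk12, the K2P channel THIK-2, was at 62.6 CPM (88 UMIs) in control and 25.5 (134 UMIs) in WMI, a log2 ratio of -1.30 (-1.70 to -0.89). The WMI level was near that of excitatory neuron-like cells, which was 20.2 in control and 21.6 in WMI. Kcnk6 also had an interval below 0 (-0.62; -1.04 to -0.19), while that of Kcnk13 included it (-0.19; -0.38 to 0.00). Kcna4 (Kv1.4) was at 22.8 and 12.9 (-0.82; -1.44 to -0.16), and was above its excitatory level in the control library only. Kcnj10 was the member past 1.5-fold in the higher direction, at 9.95 (14 UMIs) and 16.3 (86 UMIs), and its interval of -0.11 to 1.65 included 0. Kcnj2, the inward rectifier Kir2.1, had a level of 2.84 (4 UMIs) in control and 15.2 (80 UMIs) in WMI, a log2 ratio of 2.42 (1.01 to 4.33). With 84 UMIs it was below the limit for counting, and it was singled out after its values were seen. Excitatory neuron-like cells held 2.92 of it in both libraries.

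One microglia-like cluster held 2 control and 681 WMI cells. Without the clusters mostly of 1 library, the log2 ratio was -1.19 (-1.61 to -0.77) for Kcnk12, 2.53 (1.11 to 4.45) for Kcnj2, -0.43 (-0.86 to 0.01) for Kcnk6 and 0.06 (-0.13 to 0.26) for Kcnk13. The ratios of Kcnk12 and Kcnj2 thus kept their direction and interval side, and Kcnk6 was no longer past 1.5-fold. The count of members past 1.5-fold in this class rose from 9 to 14 of 35 without that cluster, all 14 lower in WMI, beside 23.9% of all genes.

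**Figure D4:**
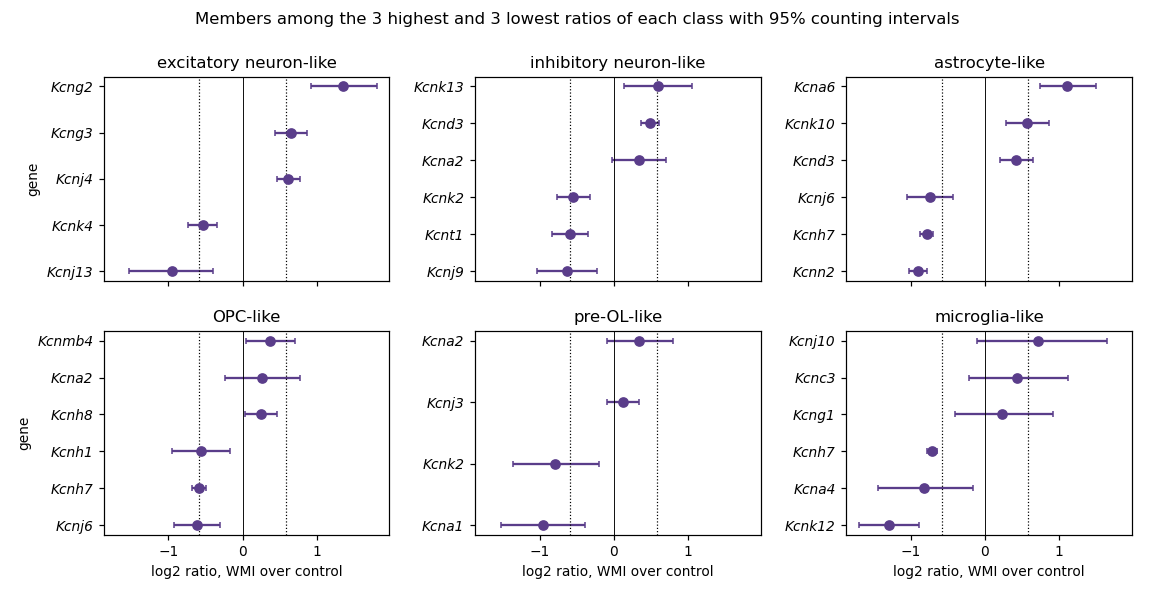
Log2 ratio of levels, WMI over control (x axis), with 95% counting intervals as bars, for members among the 3 highest and 3 lowest (y axis) in each of 6 classes; dotted lines mark 1.5-fold. The ratios range from -1.30 for Kcnk12 in microglia-like cells to 1.36 for Kcng2 in excitatory neuron-like cells.

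Genes that work with these channels were counted in the same way. They were 18 accessory subunits and partners (such as Kcnip4, which sets the inactivation of Kv4 channels), the 4 HCN pacemaker channels, and 10 pumps and cotransporters that keep the potassium gradient. In excitatory neuron-like cells, 1 of 27 counted was higher (Hcn4) and 1 lower (Kcnab3) in WMI, and in inhibitory neuron-like cells 0 of 23 were higher and 2 lower (Kcnab3 and Abcc8). These are 7.41% and 8.7% of the genes counted, against 11.8% and 8.31% of all genes. In glial classes only decreases were counted. They were 5 of 18 in astrocyte-like cells (27.8%, against 17.3% of all genes in either direction), 2 of 17 in OPC-like cells (11.8%, against 7.26%), 1 of 14 in pre-OL-like cells (7.14%, against 11.3%) and 1 of 18 in microglia-like cells (5.56%, against 20.5%). Kcnip4 was among them in each, with 5169 and 3209 CPM in astrocyte-like cells and 7351 and 4588 in microglia-like cells. The others included Kcnab1, Dpp10 and Cntnap2 in astrocyte-like cells. The levels of these partner genes in excitatory neuron-like cells are not given here, and the part of neuronal RNA in their decreases was not tested. Of the gradient genes, none was past 1.5-fold in any of the 6 classes.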

How the data were processed

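Single-cell RNA-seq was done on 1 control and 1 WMI cortex library. Per the file headers, the deposited values are raw UMI counts per gene and barcode, made by the authors with Cell Ranger 6.1.1. The submitters' processing notes name mm9 and Seurat, but all 55450 gene identifiers and symbols match GENCODE M21 (GRCm38). No column of other samples was present. Barcodes with at least 1000 UMIs, at least 500 genes and at most 10% mitochondrial UMIs were kept. Doublets were predicted from artificial doublets, 75.0% and 73.6% of 500 of which were found, and 728 control and 527 WMI barcodes were removed (0.8% per 1000 barcodes). The libraries were integrated by anchors and clustered with Seurat 5.3.0 in R 4.3.3 (2000 genes out of 2300 variable ones, 30 principal components, resolution 0.8). Potassium channel genes, their partner genes, cell cycle genes and sex genes were left out of these features. Integration shaped the clusters only, and all levels come from the raw counts. Clusters were named from marker lists. Counts were summed per class and library with Python 3.11.15, numpy 2.4.6, pandas 2.3.3 and scipy 1.17.1. Levels had exact Poisson intervals and ratios conditional exact binomial intervals, at 95%. Ratios past 1.5-fold were counted among genes whose UMIs in the class summed to at least 100. A member was placed in its highest class when it had at least 50 UMIs in a library, among classes with at least 10 of them. The genes named in full were, for each class, the 3 with the highest level relative to the median of the other classes (at least 30 UMIs) and, for each comparison, the 3 highest and 3 lowest ratios. Some genes that met this rule are not reported here. Members outside this rule are named where a count or a class turned on them. The members, marker lists and rules were chosen with earlier results of these data known. On simulated data, between 95.6% (OPC-like cells) and 100% (excitatory neuron-like cells) of the genes changed 2-fold were found past 1.5-fold. Of the unchanged genes, between 0.397% (excitatory neuron-like cells) and 1.86% (microglia-like cells) were past it. The simulated counts held counting error alone, without variation between libraries or mice, so they cannot show how reliable the comparison of WMI with control is. Promoter windows came from RefSeq. Alternatives were other minimum counts, cell filters, doublet handling, resolutions and scaling, and leaving out Xist-positive cells or clusters mostly of 1 library.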

Additional observations from a re-analysis of the deposited data

How the results depend on the processing

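No paired analysis was possible because each group has 1 library. For the same reason no library could be left out, and all intervals cover counting error only. The counts of members past 1.5-fold depended on the minimum count. With no filter beyond 1 UMI in each library they were 20 in excitatory, 13 in inhibitory, 20 in astrocyte-like, 15 in OPC-like, 28 in pre-OL-like and 21 in microglia-like cells (4, 3, 6, 2, 6 and 9 as reported), while between 29.8% and 38.3% of all genes were then past it. With a minimum of 50 UMIs the excitatory count was 7, and with 200 UMIs the pre-OL-like count was 2 and the microglia-like count 5. Without Xist-positive cells the counts were 1 in inhibitory, 3 in pre-OL-like and 4 in microglia-like cells. With equal cluster weights the inhibitory count was 1, and this alternative gave no value in the 4 glial classes, where fewer than 2 clusters had at least 20 cells of each library. Median-ratio scaling, which shifted all genes by 0.10 in astrocyte-like and 0.11 in microglia-like cells on the log2 scale, gave 10 in astrocyte-like cells. The microglia-like count was 14 at resolution 0.4 and 14 without clusters mostly of 1 library. The cause of these changes was not tested, and several alternatives also change the number of genes or cells that are left. Apart from the counts with no filter, the share of all genes is not given here beside them. These counts therefore allow no comparison of the members with other genes. Of 472 recomputed log2 ratios of named genes, 453 stayed within the counting interval of the reported ratio and 19 did not. Alternatives that change only the minimum count cannot alter a ratio, so their 46 of 46 each were fixed in advance. Without Xist-positive cells 40 of 46 stayed within the interval and 6 did not. Of the ratios past 1.5-fold 0 changed sign. The group of the highest class was shared by 47 of 57 to 55 of 62 members under the alternatives.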
